A study of Mus musculus with 24 samples.

Results

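The genes described here make cholesterol or move it. They were taken by name as 30 of the 53801 genes listed for mouse pancreatic stellate cells (PSC), the fibroblast-like cells that lay down scar tissue around pancreatic tumours. The list holds 18 enzymes of the route from acetyl-CoA to cholesterol, 5 genes that control sterol supply and 7 genes that carry, store or export cholesterol. All 30 passed the filter on low values (above 1 FPKM in at least 3 of the libraries fitted) in every comparison, so every member was tested every time.

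The study asked how PSC respond to pancreatic cancer cells grown apart from them or on the same membrane. All PSC were wild-type cells of C57BL/6J mice aged 7 to 10 weeks, isolated from 4 to 10 pooled pancreata and used after 1 or 2 passages. The cancer cells were a KPC line derived from a single mouse tumour that carried p48-Cre and lox-stop-lox alleles, so that Cre under the p48 promoter switched these alleles on in pancreatic epithelium. In the standard co-culture, KPC cells grew on the well bottom and PSC on the insert above. In the inverse co-culture, the cells grew on opposite faces of 1 porous membrane, with KPC cells attached first. PSC from each model were sequenced after 24 h and 72 h, beside mono-cultured control PSC kept on the same insert without KPC cells. This gave 8 groups of 3 biological replicates and 24 libraries. The medium was not changed during co-culture. Inverse PSC met the KPC cells at seeding, 24 h before time counting began, whereas standard PSC joined them when it began. Inverse PSC and their controls were seeded in the co-culture medium, and those of the standard model were switched to it when counting began. The inverse libraries were made from 120 ng of RNA and the standard libraries from 450 ng. The model, the time beside KPC cells, the medium at seeding and the RNA input therefore cannot be told apart.

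Cells make cholesterol from acetyl-CoA through mevalonate, isoprenoid, squalene and lanosterol steps. When sterol in the endoplasmic reticulum runs low, SCAP carries the SREBP transcription factors (encoded by Srebf1 and Srebf2) to the Golgi for cleavage, and they then switch on the synthesis genes, whereas the INSIG proteins hold SCAP back when sterol is plentiful. When sterol is plentiful, oxysterols activate the LXR receptors, which raise the exporters ABCA1 and ABCG1 and also Srebf1. Quiescent stellate cells are known for storing retinyl esters in lipid droplets, which they lose on activation.

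Each library held between 15932737 and 24798761 fragments, as recovered from the deposited values, and between 12277 and 13307 genes above 1 FPKM (fragments scaled to transcript length and library size). Of 7 stellate and fibroblast markers, 6 exceeded 1 FPKM in every group, and their summed level lay between 10227 and 19308 FPKM. Gfap, which marks quiescent stellate cells, was the exception. Endothelial markers summed to at most 0.65 FPKM. Epithelial markers summed to at most 0.37 FPKM in the inverse controls but to 1.84, 43.0 and 6.55 FPKM in the inverse co-cultures of 24 h (replicates 1, 2 and 3) and to 1.5 to 7.78 FPKM in those of 72 h. In the standard model, the macrophage markers of replicate 2 summed to between 369 and 1197 FPKM, against at most 167 FPKM in the other replicates. Because these are bulk libraries, fewer cells of a type and less RNA per cell cannot be told apart.

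Within the synthesis route, levels differed widely between members. In the inverse controls of 24 h, the highest mean belonged to Cyp51 (lanosterol demethylase) at 46.0 ± 4.16 FPKM (SD, n = 3) and the next to Hmgcs1 (HMG-CoA synthase, which commits acetyl-CoA to mevalonate) at 30.9 ± 2.10 FPKM. The lowest was Fdps (farnesyl diphosphate synthase) at 1.59 ± 0.60 FPKM. Exons of Fdps are shared with the annotated gene Gm43738 on the same strand, and the counting leaves out fragments that fall on exons of several genes, so its level may be an underestimate. Hmgcs1, Idi1, Fdft1, Lss, Cyp51, Tm7sf2, Srebf1, Scap and Npc1 overlap exons of other genes too, and the counting ignored strand. The 5 control genes stood higher than most enzymes, from 39.2 ± 4.71 FPKM for Insig1 to 80.7 ± 5.76 FPKM for Srebf1. In the transport group, Npc2, a soluble protein that hands cholesterol out of the lysosome, reached 199 ± 11.9 FPKM, and the exporter Abcg1 stood at 4.55 ± 0.57 FPKM. The lengths behind the deposited FPKM values mostly equal the mean length of a gene's transcripts, which affects comparisons between genes but not between libraries.

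The synthesis members varied together between replicates. When each library was set against the mean of its own group, the median Pearson correlation between pairs of the 18 enzymes over the 12 libraries of the standard model was 0.84, and all 153 pairs were above 0. In the inverse model it was 0.71, with 147 of 153 pairs above 0. The 5 control genes showed medians of 0.81 and 0.55, and the 7 transport genes 0.01 and 0.10. Across all pairs of tested genes, the medians were 0.03 in both models. These values describe the libraries, since the points of a pair share library, depth and scaling, and carry no test.

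In several groups, a single library was the lowest in most synthesis members. The share of such libraries in these correlations was not measured. In the inverse co-culture of 72 h, replicate 3 was the lowest of its group in all 18 synthesis members, by 0.63 log2 units below the group mean on average, whereas the median gene of that library stood 0.0005 above its group. In the standard controls, replicate 1 was lowest in 17 of 18 synthesis members at 24 h and in 18 of 18 at 72 h, and in the standard co-culture of 24 h it was lowest in 14 of 18. The standard co-culture of 72 h differed, with replicate 2 lowest in 16 of 18.

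Because these members moved together, the stretches in front of their start sites were searched for the letters of 3 known binding sequences. RefSeq promoters (build GRCm38.p6, 250 bases before to 50 bases after a start) were at hand for 23 of the 30 members, in 31 windows. The SREBP letters TCACNCCAC on either strand occurred in 1 member, Hmgcs1, starting 137 bases before its start, and in 1.24% of all 32851 windows. The NF-Y letters CCAAT occurred in 21 of 31 member windows and in 37.4% of all windows. The Sp1 letters GGGCGG occurred in 26 of 31 member windows and in 35.7% of all windows. A match is a description of the letters and not of a bound site. Scarb1 and Abcg1 had no entry.

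The exon-free stretches in front of 6 members on which the results below turn are shown 5′ to 3′ in the direction of the gene, with matches to any of the 3 patterns, on either strand, in capitals (ATTGG is CCAAT and CCGCCC is GGGCGG read on the other strand). They lie at chr13:119690101-119690350 on the plus strand for Hmgcs1, chr5:28071162-28071362 plus for Insig1, chr11:60210472-60210721 minus for Srebf1, chr1:169969242-169969408 minus for Hsd17b7, chr3:89454291-89454540 plus for Pmvk and chr4:53159896-53160145 minus for Abca1. In the stretches shown, Hmgcs1 holds all 3 patterns. Insig1, Srebf1 and Hsd17b7 hold CCAAT and GGGCGG there, Pmvk holds CCAAT alone, and the exporter Abca1 holds GGGCGG alone. Srebf1 has 3 RefSeq start windows and Pmvk 2, of which 1 each is shown. The stretches not shown differ. For Srebf1, chr11:60220628-60220877 holds GGGCGG alone and chr11:60222582-60222831 holds CCAAT alone. For Pmvk, chr3:89459465-89459570 holds none of the patterns.
Hmgcs1: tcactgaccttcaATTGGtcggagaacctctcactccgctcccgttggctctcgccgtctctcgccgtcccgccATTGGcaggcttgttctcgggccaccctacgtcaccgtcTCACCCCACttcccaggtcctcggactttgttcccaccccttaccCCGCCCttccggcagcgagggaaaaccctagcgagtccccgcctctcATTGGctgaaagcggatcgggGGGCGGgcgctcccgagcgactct
Insig1: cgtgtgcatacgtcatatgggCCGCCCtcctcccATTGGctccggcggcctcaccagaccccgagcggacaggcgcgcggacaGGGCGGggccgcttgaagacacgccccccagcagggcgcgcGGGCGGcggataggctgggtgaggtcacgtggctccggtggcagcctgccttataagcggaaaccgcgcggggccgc
Srebf1: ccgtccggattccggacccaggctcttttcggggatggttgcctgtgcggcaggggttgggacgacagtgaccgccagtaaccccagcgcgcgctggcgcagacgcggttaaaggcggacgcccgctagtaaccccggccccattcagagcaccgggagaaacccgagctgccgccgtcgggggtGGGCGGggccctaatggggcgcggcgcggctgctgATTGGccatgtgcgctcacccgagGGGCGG
Hsd17b7: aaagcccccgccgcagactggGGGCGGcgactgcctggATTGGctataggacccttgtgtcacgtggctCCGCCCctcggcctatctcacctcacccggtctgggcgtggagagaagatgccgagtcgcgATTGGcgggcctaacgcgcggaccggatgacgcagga
Pmvk: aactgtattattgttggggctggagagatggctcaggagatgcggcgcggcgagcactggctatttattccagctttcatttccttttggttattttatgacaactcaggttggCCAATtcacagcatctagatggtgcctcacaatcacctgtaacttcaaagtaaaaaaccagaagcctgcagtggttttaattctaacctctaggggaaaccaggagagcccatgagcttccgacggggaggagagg
Abca1: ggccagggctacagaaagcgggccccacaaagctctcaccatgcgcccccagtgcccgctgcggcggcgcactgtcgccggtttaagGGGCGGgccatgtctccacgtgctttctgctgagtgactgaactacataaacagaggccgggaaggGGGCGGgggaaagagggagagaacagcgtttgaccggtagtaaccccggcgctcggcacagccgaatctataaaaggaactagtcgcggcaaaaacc

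In the standard co-culture, no sterol gene was called between co-cultured and control PSC. None of the 30 passed the test (limma on log2(FPKM + 0.5), adjusted p under 0.05 over all genes tested) at 24 h or at 72 h, and none had an unadjusted p under 0.05. The same fit called 0.0% of 12859 genes at 24 h and 0.0% of 12863 genes at 72 h, and limma-voom on recovered fragments called 0 members at each time. An unadjusted p under 0.05 was found in 371 and 800 of these genes. The log2 fold changes of the members ran from -0.27 to 0.41 at 24 h (median -0.02) and from -0.51 to 0.37 at 72 h (median 0.04). Their standard errors had medians of 0.26 and 0.27 but reached 0.93 for Abca1 at 24 h, since its 3 controls stood at 4.88, 37.1 and 29.5 FPKM. In the fit with the replicate number as a block, which pairs the standard samples, the SE of Abca1 at 24 h was 0.13 and the medians over the members were 0.10 at 24 h and 0.21 at 72 h. No member passed there either (smallest adjusted p = 0.113 at 24 h and 0.502 at 72 h), and 3 members at 24 h and 0 at 72 h had an unadjusted p under 0.05. The share of all genes at that unadjusted limit is not given for this fit, so these counts do not set the members apart from other genes.

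The synthesis genes of the standard model overlapped between the groups almost throughout. Hmgcs1 stood at 20.9, 34.0 and 45.7 FPKM in the controls of 24 h and at 20.8, 33.0 and 47.6 FPKM in the co-cultures, so that the replicates with equal numbers lay close together and the replicates within a group far apart. Insig1, which holds SCAP in the endoplasmic reticulum, behaved alike, with 21.7, 59.2 and 79.6 FPKM in the controls and 22.99, 54.2 and 83.9 FPKM in the co-cultures. Only Ebp (an isomerase of the late sterol steps) at 24 h and Npc1 (the membrane protein that passes cholesterol out of the lysosome) at 72 h were lower in every co-culture than in every control, against 4.38% and 9.78% of all genes tested. Their log2 fold changes were -0.20 (SE 0.13, adjusted p = 1) and -0.24 (SE 0.13, adjusted p = 0.799). No member was higher without overlap at either time, against 3.35% and 3.36% of all genes.

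In the inverse co-culture, 2 transport genes differed at 24 h and 6 members were lower at 72 h. After 24 h, the lysosomal carrier Npc2 was 1.53-fold higher and the exporter Abcg1 2.08-fold lower in co-cultured PSC, and no enzyme or control gene passed the test. After 72 h, the HDL receptor Scarb1 was 2.89-fold lower, Abcg1 2.28-fold lower, the exporter Abca1 1.88-fold lower, Srebf1 1.73-fold lower and the enzymes Hsd17b7 and Pmvk 2.22-fold and 1.91-fold lower. No member rose at 72 h.

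**Figure D1:**
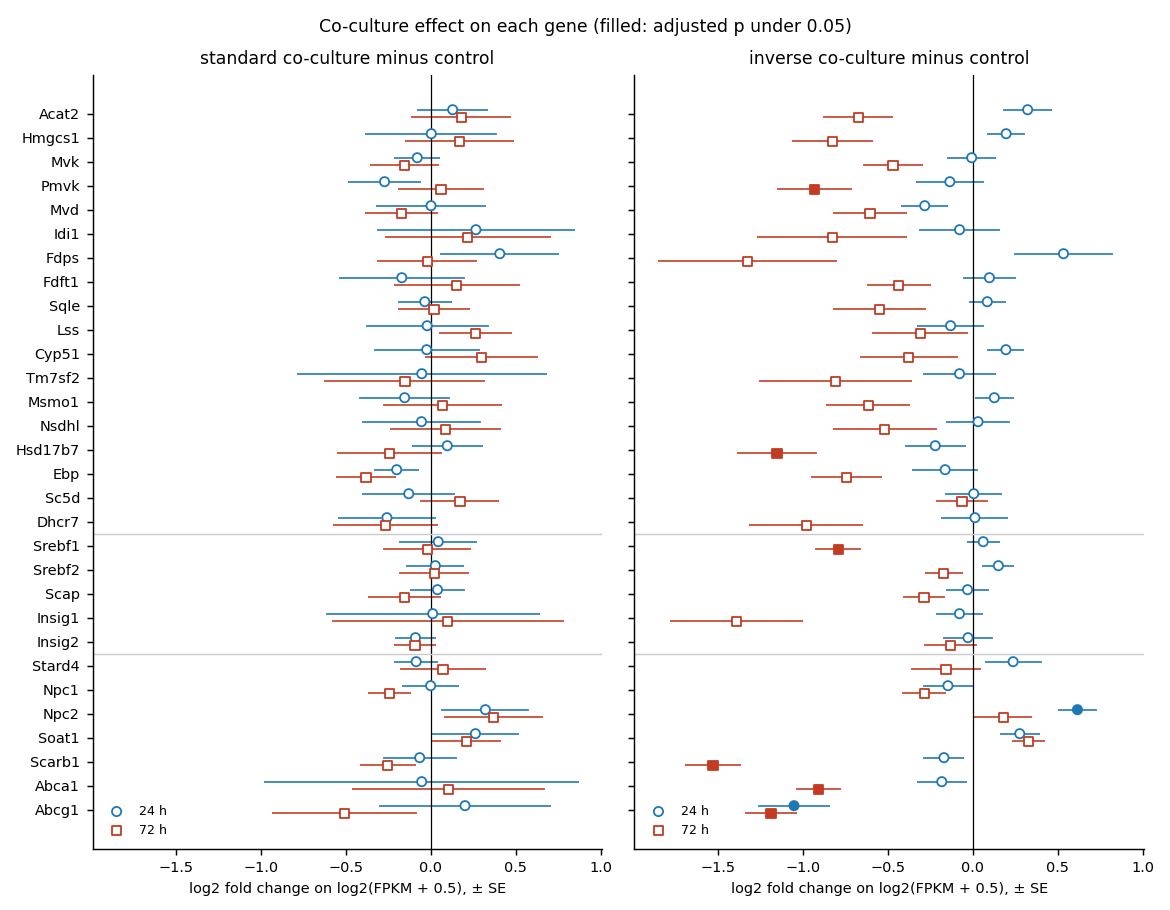
Log2 fold change of co-cultured against control PSC for each of the 30 members (rows) in the standard (left) and the inverse model (right), with bars of ± 1 SE, 24 h as blue circles and 72 h as red squares, filled where the adjusted p was under 0.05. No symbol is filled in the standard model, 2 circles (Npc2 and Abcg1) and 6 squares are filled in the inverse model, and 28 of the 30 inverse squares lie below 0.

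At 24 h of inverse co-culture, Npc2 stood at 207, 205 and 186 FPKM in the controls and at 354, 297 and 271 FPKM in the co-cultures. The groups did not overlap. The log2 fold change was 0.62 (SE 0.12, adjusted p = 0.0327 by limma). The call was lost without co-culture replicate 2 and without any of the 3 controls. At 72 h, Npc2 stood at 224, 172 and 202 FPKM in the controls and at 245, 260 and 176 FPKM in the co-cultures, and the groups overlapped.

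Abcg1 exports cholesterol to HDL particles. At 24 h it stood at 4.47, 4.02 and 5.15 FPKM in the inverse controls and at 1.51, 2.12 and 2.20 FPKM in the co-cultures. Every co-culture was below every control, with a log2 fold change of -1.05 (SE 0.21, adjusted p = 0.0415 by limma). Of the 6 fits that each left out 1 library, only the fit without co-culture replicate 3 kept the call.

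These 2 calls among 30 members split into 3.33% higher and 3.33% lower, against 2.47% called in all, 1.08% higher and 1.39% lower among all 12827 genes tested. The members had a median log2 fold change of -0.0007, with 15 above 0 and 15 below, against a median of -0.06 over all genes. After median-ratio scaling, 18 were above 0 and 12 below, and only the Npc2 call remained. The groups did not overlap in 4 members that were higher (Acat2, Srebf2, Npc2 and Soat1) and in 2 that were lower (Mvd and Abcg1), against 7.38% and 13.8% of all genes. The epithelial marker sum was above every control in each of the 3 co-cultures and highest in replicate 2, and its part in these values was not tested.

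At 72 h, 3 of the 7 transport genes passed the test. Scarb1, a receptor that exchanges cholesterol with HDL, stood at 79.6, 50.9 and 67.1 FPKM in the inverse controls and at 21.7, 23.5 and 21.1 FPKM in the co-cultures. All 3 co-cultures were below the lowest control by a wide margin. The log2 fold change was -1.53 (SE 0.16, adjusted p = 0.00407 by limma), and Scarb1 passed the test in all 6 fits that left out a library.

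Abca1, which passes cholesterol to apolipoprotein A-I, stood at 37.9, 34.1 and 35.3 FPKM in the controls of 72 h and at 18.9, 21.8 and 16.1 FPKM in the co-cultures. Its log2 fold change was -0.91 (SE 0.13, adjusted p = 0.00797 by limma). Abcg1 stood at 10.0, 9.35 and 8.26 FPKM in the controls and at 3.53, 3.91 and 3.81 FPKM in the co-cultures, with a log2 fold change of -1.19 (SE 0.15, adjusted p = 0.00615). The groups did not overlap for either exporter, and each kept its call in all 6 fits that left out a library. Neither passed the limit when all 24 libraries shared 1 estimate of spread.

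The other transport genes did not pass the test at 72 h. Soat1, which esterifies cholesterol for storage in droplets, stood at 39.2, 38.8 and 40.3 FPKM in the controls and at 54.1, 46.7 and 48.6 FPKM in the co-cultures. It was the only member that was higher in every co-culture than in every control, with a log2 fold change of 0.33 (SE 0.10, adjusted p = 0.0613), and it passed the test after median-ratio scaling and in limma-voom. Npc1 and Stard4, a carrier of sterol between membranes, had log2 fold changes of -0.29 and -0.16 (adjusted p = 0.176 and 0.628).

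Of the control genes, Srebf1 passed the test. It stood at 196, 149 and 162 FPKM in the inverse controls of 72 h and at 99.9, 107 and 85.1 FPKM in the co-cultures, so that the groups did not overlap. The log2 fold change was -0.79 (SE 0.14, adjusted p = 0.0128 by limma), and the call was lost without co-culture replicate 1 (adjusted p = 0.0535) and without control replicate 3. Exons of Srebf1 overlap Rai1 on the other strand. Insig1 had a larger log2 fold change of -1.39 but an SE of 0.39 and an adjusted p of 0.0547, with 117, 78.1 and 101 FPKM in the controls and 46.4, 58.3 and 18.3 FPKM in the co-cultures. Replicate 3 held the lowest of these values, and without it the log2 fold change of Insig1 was -0.90 (adjusted p = 0.0227).

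Srebf2, Scap and Insig2 did not pass the test in the same comparison. Their log2 fold changes were -0.17 (SE 0.11), -0.29 (SE 0.12) and -0.13 (SE 0.16) (adjusted p = 0.326, 0.152 and 0.593).

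Among the 18 enzymes, Hsd17b7 and Pmvk passed the test. Hsd17b7, a ketosteroid reductase of the late sterol steps, stood at 44.1, 40.3 and 39.8 FPKM in the controls and at 21.7, 23.6 and 11.9 FPKM in the co-cultures, with a log2 fold change of -1.15 (SE 0.24, adjusted p = 0.0218 by limma). Pmvk (phosphomevalonate kinase) stood at 19.1, 18.5 and 19.4 FPKM in the controls and at 11.3, 12.4 and 6.56 FPKM in the co-cultures, with a log2 fold change of -0.93 (SE 0.22, adjusted p = 0.0341). Neither gene's groups overlapped, and replicate 3 was the lowest co-culture for both. Without it, both passed the test at -0.86 and -0.67 (adjusted p = 0.00579 and 0.0151). Both calls were lost without co-culture replicate 1, without any 1 of the controls and with no filter on low values. Pmvk also fell short of the limit after median-ratio scaling.

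All 18 enzymes had log2 fold changes below 0 at 72 h of inverse co-culture, with a median of -0.65, but after median-ratio scaling Sc5d stood above 0. The estimates ran from -0.06 for Sc5d (sterol C5 desaturase) to -1.33 for Fdps. Hmgcs1 stood at 60.0, 45.5 and 57.3 FPKM in the controls and at 34.0, 39.5 and 20.4 FPKM in the co-cultures, with a log2 fold change of -0.83 (SE 0.24, adjusted p = 0.0587). Ebp and Acat2 (the thiolase that makes acetoacetyl-CoA) had log2 fold changes of -0.74 and -0.68 (adjusted p = 0.0551 and 0.0687). In 11 of the 18 the groups did not overlap.

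In the enzymes whose groups overlapped, replicate 3 was again the lowest co-culture. Cyp51 stood at 79.4, 61.2 and 62.8 FPKM in the controls and at 61.6, 71.7 and 31.2 FPKM in the co-cultures, so that 2 of 3 co-cultures lay within the control range. Its log2 fold change was -0.38 with all libraries and -0.02 without replicate 3. Lss (lanosterol synthase) gave -0.31 with that library and 0.00 without it. Without replicate 3 the median of all 30 members was -0.33 in place of -0.61, 26 of 30 in place of 28 were below 0, and 8 in place of 6 passed the test, with Insig1 and Hmgcs1 (-0.55, adjusted p = 0.0488) added. The count was 3 without co-culture replicate 1, 9 without co-culture replicate 2, 4 without control replicate 1 or 2, and 3 without control replicate 3.

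Read against all genes, 6 of 30 members (20%) fell at 72 h where 9.57% of 13066 genes did, and 0 of 30 rose where 3.27% of all genes did (12.8% in either direction). With median-ratio scaling, 5 members fell (Pmvk dropped out) and Soat1 rose. Lower levels without overlap were found in 18 of 30 members (60.0%), against 28.8% of all genes, and higher ones in 1 of 30, against 9.53%. The median log2 fold change of the members was -0.61, against -0.16 over all genes. Median-ratio scaling moved these medians to -0.46 and -0.01, and Sc5d and Insig2 then joined Npc2 and Soat1 above 0. The members were picked by name with earlier results of these data known, so these shares are descriptions.

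**Figure D2:**
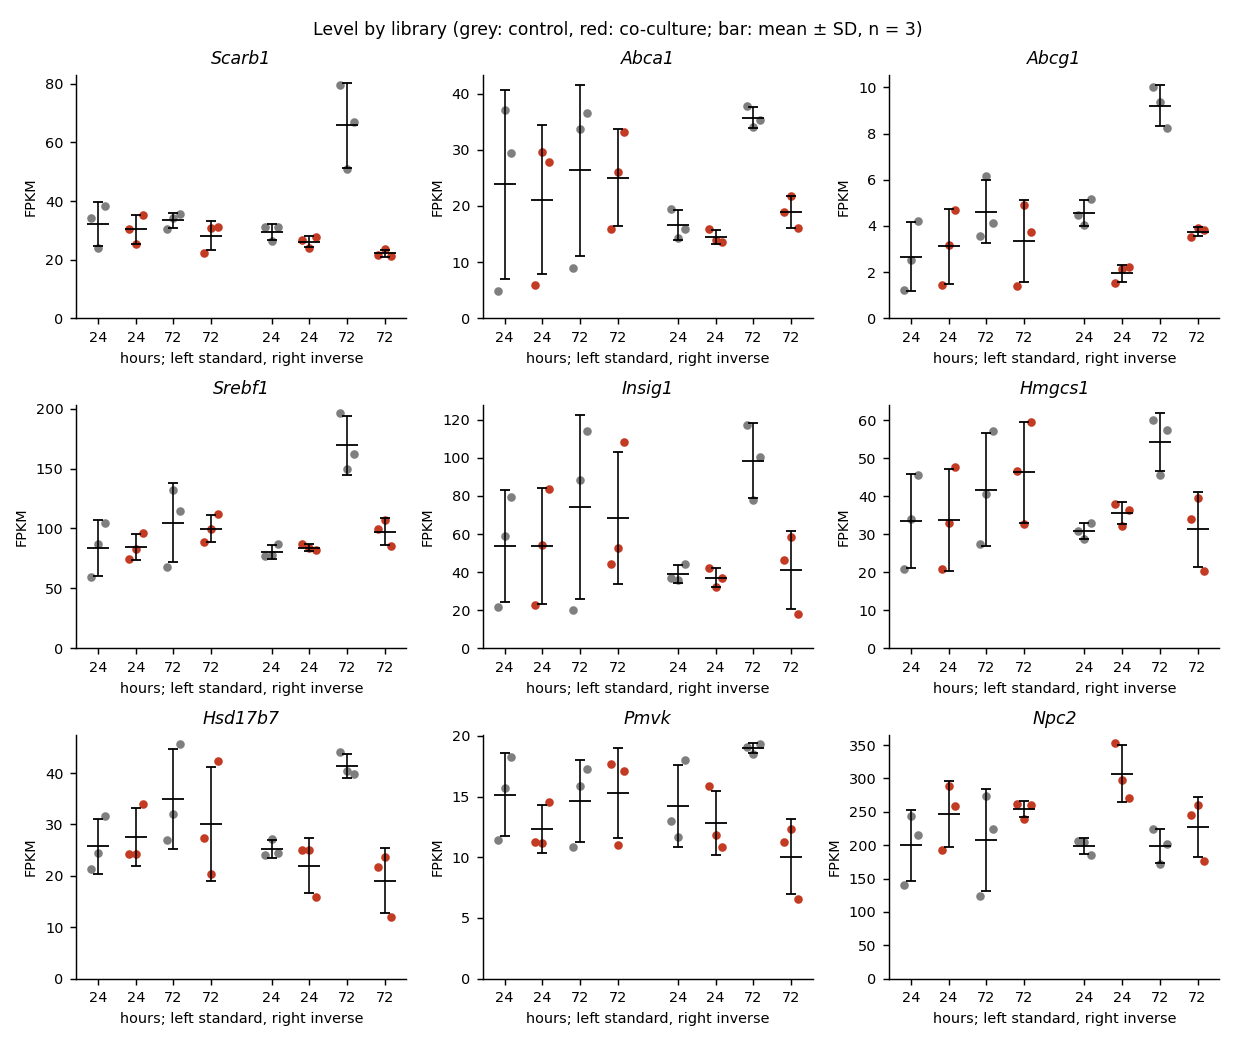
FPKM in each library (points) with the mean and SD of the 3 replicates (bars) for 9 members in the 8 groups, standard model on the left of each panel and inverse model on the right. Scarb1, Abca1, Abcg1, Srebf1, Hsd17b7 and Pmvk peak in the inverse controls of 72 h, where Scarb1 reaches 50.9 to 79.6 FPKM against 21.1 to 23.5 FPKM in the inverse co-cultures of 72 h.

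The inverse controls themselves changed between 24 h and 72 h, and the libraries of 72 h enter both this comparison and the one above. Over that time, 18 of 30 members (60.0%) rose in the inverse controls and none fell, against 10.2% and 9.05% of 13092 genes tested (19.2% in either direction). They were 11 of 18 enzymes, 4 of 5 control genes (all but Insig2) and 3 of 7 transport genes (Scarb1, Abca1 and Abcg1). The median log2 fold change of the 30 members was 0.63, against 0.04 over all genes, with 27 above 0. The groups did not overlap in 20 members that were higher (66.7%, against 22.8% of all genes) and in 1 that was lower (Soat1, against 16.9%).

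Insig1 rose most, from 37.1, 35.8 and 44.5 FPKM at 24 h to 117, 78.1 and 101 FPKM at 72 h, a log2 fold change of 1.31 (SE 0.15, adjusted p = 0.00207 by limma). Scarb1 rose from 31.1, 26.3 and 31.1 FPKM to 79.6, 50.9 and 67.1 FPKM, by 1.13 (SE 0.16, adjusted p = 0.00313). The groups were far apart for both. Srebf1 rose from 76.9, 77.8 and 87.3 FPKM to 196, 149 and 162 FPKM, by 1.06 (SE 0.12, adjusted p = 0.00177), and Abca1 from 19.5, 14.3 and 15.9 FPKM to 37.9, 34.1 and 35.3 FPKM, by 1.10 (SE 0.13, adjusted p = 0.00198). Abcg1 rose by 0.95 (SE 0.15, adjusted p = 0.00473).

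The enzymes that rose cover the route from its first step to its last part. Hmgcs1 rose by 0.79 (SE 0.12, adjusted p = 0.00425), Sqle (squalene epoxidase, a rate-limiting enzyme) by 0.66 (SE 0.10, adjusted p = 0.00385) and Hsd17b7 by 0.70 (SE 0.10, adjusted p = 0.00297). The others that rose were Acat2, Idi1, Fdps, Lss, Cyp51, Tm7sf2, Msmo1 and Nsdhl, by 0.55 to 1.06. Mvk, Pmvk, Mvd, Fdft1, Ebp, Sc5d and Dhcr7 did not pass the test, and of these Dhcr7 (the last reductase of the route) came closest at 0.85 (SE 0.27, adjusted p = 0.0559). Srebf2 and Scap rose by 0.46 and 0.39 (adjusted p = 0.00587 and 0.0194).

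Leaving out 1 library at a time kept between 12 and 19 members above the limit, the fewest without the 24 h control replicate 1, and 11 members passed in all 6 such fits (Abca1, Abcg1, Acat2, Hmgcs1, Hsd17b7, Insig1, Msmo1, Scarb1, Sqle, Srebf1 and Srebf2). When all 24 libraries shared 1 estimate of spread, only Scarb1 and Srebf1 passed.

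**Figure D3:**
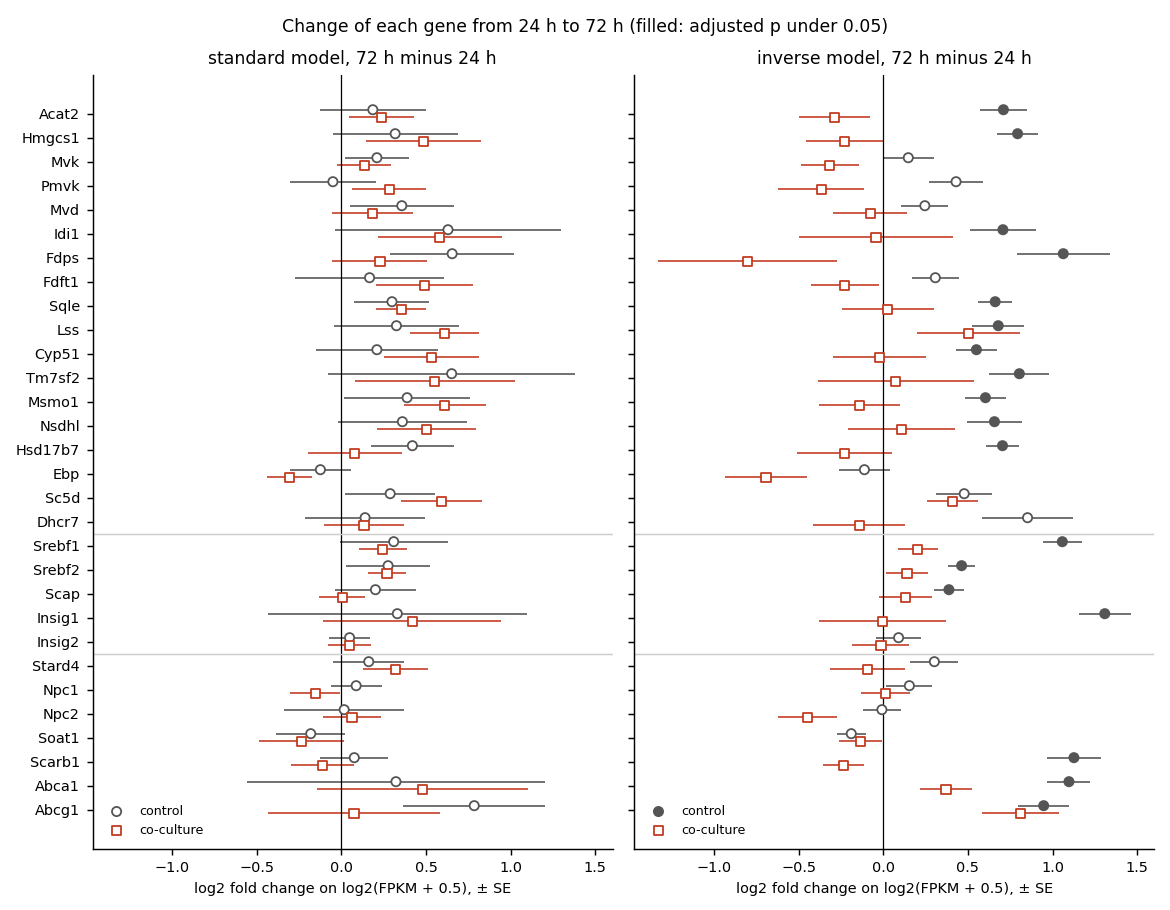
Log2 fold change of 72 h against 24 h for each of the 30 members (rows) in the standard (left) and the inverse model (right), controls in grey and co-cultured PSC in red, with bars of ± 1 SE and filled symbols where the adjusted p was under 0.05. The 18 filled symbols all belong to the inverse controls, which centre on 0.63, and the inverse co-cultures centre on -0.06.

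In co-cultured PSC of the inverse model, none of the 30 members passed the test between 24 h and 72 h, in limma or in limma-voom, where limma called 0.00784% of 12758 genes. An unadjusted p under 0.05 was found in 5 of 30 members and in 1953 of the 12758 genes, which are similar shares. The median log2 fold change was -0.06, against -0.07 over all genes, with 11 members above 0 and 19 below. The groups did not overlap in 3 members that were higher and 3 that were lower, against 7.81% and 13.9% of all genes. Scarb1 stood at 26.8, 23.9 and 27.7 FPKM at 24 h and at 21.7, 23.5 and 21.1 FPKM at 72 h (log2 fold change -0.23, SE 0.12, adjusted p = 0.392). Srebf1 stood at 87.0, 83.3 and 81.9 FPKM and at 99.9, 107 and 85.1 FPKM (0.20, SE 0.12, adjusted p = 0.442). Abcg1 had the largest increase, from 1.51, 2.12 and 2.20 FPKM to 3.53, 3.91 and 3.81 FPKM, without overlap but without passing the test (0.81, SE 0.23, adjusted p = 0.19).

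The test of the difference itself, the co-culture effect at 72 h minus that at 24 h in the inverse model, called no member and 0.0% of 13722 genes. Scarb1 came closest with a difference of -1.36 (SE 0.21, adjusted p = 0.0643), followed by Srebf1 at -0.85 (SE 0.17, adjusted p = 0.112). The differences were below 0 in 29 of 30 members, and 12 had an unadjusted p under 0.05, against 1471 of the 13722 genes. Limma-voom called Scarb1 (adjusted p = 0.0358). Without inverse control of 72 h replicate 2, Scarb1 and Srebf1 passed, and Scarb1 passed without inverse co-culture of 72 h replicate 2 or of 24 h replicate 3. This contrast and those above share the same 12 libraries.

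In the standard model, no member passed the test over time in the controls or in the co-cultures. In the controls 0 of 30 members passed in limma or limma-voom, 0 had an unadjusted p under 0.05, 27 were above 0 and the median was 0.28, where 0.0% of 12963 genes passed. Of those genes, 127 had an unadjusted p under 0.05. In no member were the groups without overlap, against 1.74% of all genes higher and 2.84% lower. In the co-cultures 0 passed in either fit, 5 had an unadjusted p under 0.05, 26 were above 0 and the median was 0.26, where 0.0% of 12805 genes passed. Of those genes, 467 had an unadjusted p under 0.05. Here 5 members were higher without overlap, against 2.47% of all genes, and 1 lower, against 7.66%. The standard errors had medians of 0.32 and 0.24, against 0.14 in the inverse controls. With the replicate block they were 0.14 and 0.16, and 0 members passed (smallest adjusted p = 0.418 and 0.36), with 11 and 9 at an unadjusted p under 0.05. The share of all genes at that unadjusted limit is not given for the block fit, so these counts do not set the members apart from other genes. Scarb1 stood at 34.3, 24.0 and 38.2 FPKM in the standard controls of 24 h and at 30.4, 34.2 and 35.6 FPKM in those of 72 h, all below the lowest inverse control of 72 h.

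Whether the co-culture effect differed between the models was tested as well. No member passed at 24 h or 72 h, nor did any of 14452 genes (0.0%), and limma-voom called 0 members. At 72 h, 29 of 30 differences (inverse minus standard) were below 0 and 7 members had an unadjusted p under 0.05, against 1 member at 24 h. Of the 14452 genes, 501 at 72 h and 182 at 24 h had such a p. Scarb1 had the smallest adjusted p at 72 h (difference -1.28, SE 0.25, adjusted p = 0.339, or 0.0638 with the replicate block). With that block the median SE of the members at 72 h was 0.27 in place of 0.35. No member passed there, and 13 had an unadjusted p under 0.05, for which the share of all genes is not given. The lower levels at 72 h are therefore not shown to be particular to the inverse model.

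Marker genes of other cells moved with these levels in some groups and not in others. In the inverse controls, 10 adipocyte markers, several of which are also genes of lipid storage, summed to between 231 and 337 FPKM at 24 h and to between 514 and 1054 FPKM at 72 h, and 7 of the 9 tested rose. In the inverse co-cultures they summed to between 125 and 275 FPKM at 24 h and to between 43.9 and 147 FPKM at 72 h, and 8 of 9 were lower than in the controls of 72 h. Within their groups, the inverse co-culture of 72 h replicate 3 and replicate 1 of the standard co-culture of 24 h and of both standard controls were lowest in the mean of the synthesis genes and also in the adipocyte sum (43.9, 125, 132 and 59.3 FPKM). In the inverse controls of 72 h, replicate 2 was lowest in both (514 FPKM). In the standard co-culture of 72 h, replicate 2 was lowest in the synthesis genes and replicate 1 in the adipocyte sum (98.5 FPKM). In the inverse co-culture of 24 h these were replicates 2 and 3 (125 FPKM), and in its controls replicates 1 and 2 (231 FPKM). Over time in the standard model, adipocyte markers had median log2 fold changes of -0.30 (controls) and -0.42 (co-cultures). The sterol members had 0.28 and 0.26 there. None of the 10 markers was at 0 throughout a group.

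The macrophage markers were also highest in the inverse controls of 72 h within that model. Their sum was 68.8 to 83.5 FPKM in the controls of 24 h, 122 to 229 FPKM in the controls of 72 h, 24.2 to 80.4 FPKM in the co-cultures of 24 h and 50.1 to 79.8 FPKM in the co-cultures of 72 h. Of the 7 tested, 5 rose in the controls over time and 5 were lower in the co-cultures of 72 h. Stellate markers fell in 3 of 6 between 24 h and 72 h in the inverse controls, and 1 epithelial marker of 1 tested was higher in the co-cultures of 72 h. The part of these markers in the levels of the sterol genes was not tested.

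**Figure D4:**
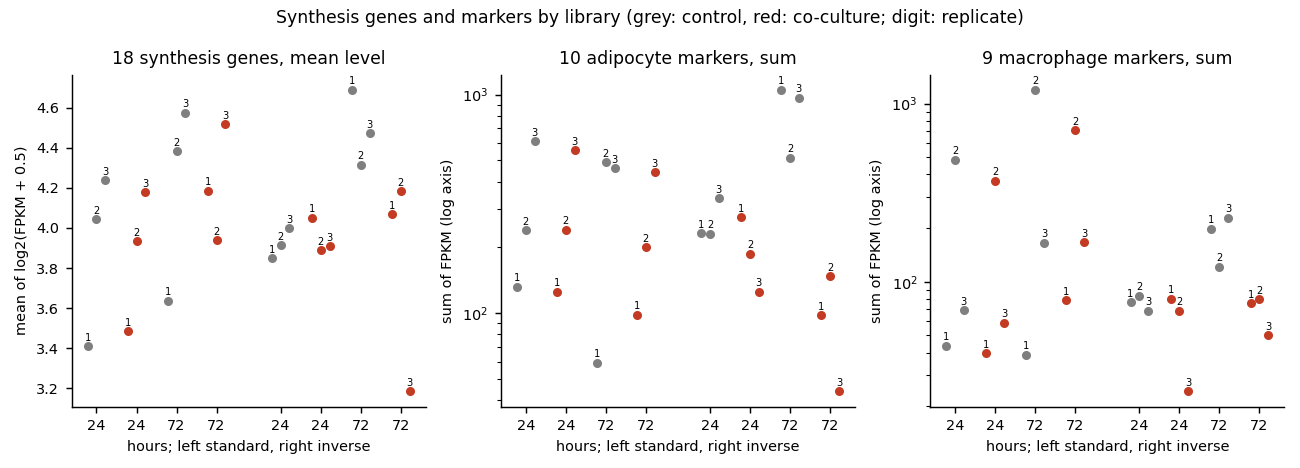
Mean log2(FPKM + 0.5) of the 18 synthesis genes (left), summed FPKM of 10 adipocyte markers (middle, log axis) and summed FPKM of 9 macrophage markers (right, log axis) in each library, marked by its replicate number, for the 8 groups. In the inverse model both marker sums are highest in the controls of 72 h (514 to 1054 and 122 to 229 FPKM), and replicate 2 of the standard model has macrophage sums of 369 to 1197 FPKM.

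A further list of 47 genes of the same pathways was set beside the members, of which 46 were tested in the inverse and 45 in the standard model. None passed the test in the standard co-cultures. At 24 h of inverse co-culture, 2 rose (4.35%) and 1 fell (2.17%), against 1.08% and 1.39% of all genes tested. Ch25h, which makes 25-hydroxycholesterol, stood at 12.04, 12.9 and 19.3 FPKM in the controls and at 47.1, 42.0 and 115 FPKM in the co-cultures (log2 fold change 2.04, SE 0.35, adjusted p = 0.0241 by limma). Cyp7b1, which hydroxylates oxysterols further, rose from 8.61, 9.76 and 6.40 FPKM to 23.5, 18.5 and 16.8 FPKM (1.20, SE 0.19, adjusted p = 0.0168). Cav1 (caveolin, a cholesterol-binding membrane protein) fell by 0.74 (SE 0.11, adjusted p = 0.0159). The call of Ch25h was lost without any 1 of the controls, that of Cyp7b1 without co-culture replicate 2 or control replicate 1 or 3, and that of Cav1 without co-culture replicate 2 or any 1 of the controls.

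At 72 h of inverse co-culture, 2 of the 46 rose and 6 fell, where 3.27% and 9.57% of all 13066 genes tested did. The median log2 fold change of the list was -0.17, against -0.16 over all genes, so the list as a whole lay close to all genes. Ch25h stood at 23.7, 13.4 and 20.3 FPKM in the controls and at 114, 94.9 and 110 FPKM in the co-cultures (log2 fold change 2.48, SE 0.20, adjusted p = 0.00269 by limma), and passed without any single library. The groups were wide apart. Nr1h3, which encodes LXR-alpha, fell from 27.5, 18.7 and 22.99 FPKM to 7.51, 9.85 and 7.17 FPKM (-1.44, SE 0.18, adjusted p = 0.00615), and its partner receptor Rxra from 100, 102 and 103 FPKM to 49.1, 57.5 and 45.6 FPKM (-1.002, SE 0.11, adjusted p = 0.00444). Mylip, an LXR target that degrades lipoprotein receptors, fell by 1.12 (SE 0.17, adjusted p = 0.00897). The other 5 genes of the oxysterol and LXR list did not pass the test, with log2 fold changes of -0.22 for Nr1h2 (LXR-beta), -0.07 for Rxrb, -0.20 for Lpcat3 (an LXR target), -1.13 for Cyp27a1 and 0.88 for Cyp7b1 (adjusted p = 0.229, 0.732, 0.317, 0.0843 and 0.099).

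The rest were genes of uptake and transfer. Cd36 (a scavenger receptor and fatty acid carrier that adipocytes and macrophages also express) fell by 3.31 (SE 0.47, adjusted p = 0.00774), Cav1 by 2.35 (SE 0.27, adjusted p = 0.00464) and the lysosomal lipase Lipa by 0.62 (SE 0.12, adjusted p = 0.0179), while Stard5 rose by 0.76 (SE 0.17, adjusted p = 0.0315). Lipa lost its call without co-culture replicate 1, control replicate 1 or control replicate 3, Stard5 without co-culture replicate 1 or any control, and Mylip without control replicate 3. In the inverse controls over time, 10 of the 46 rose (21.7%) and 2 fell (4.35%), against 10.2% and 9.05% of all genes tested. Nr1h3 and Cd36 were among those that rose, by 1.16 and 1.79 (adjusted p = 0.00322 and 0.00579).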

How the data were processed

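Polyadenylated RNA of 24 PSC libraries was sequenced as paired-end reads. Per the labels and the submitters' processing notes, the authors aligned reads with HISAT2 2.0.5 to GRCm38, counted fragments per gene with featureCounts 1.5.0-p3 without regard to strand, tested them with DESeq2 1.20.0 and deposited FPKM values for all libraries in 1 table, which was the only file used. No comparison of the authors was used.

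The FPKM values were tested as log2(FPKM + 0.5) with limma 3.58.1 (R 4.3.3, intensity trend, two-sided) in the libraries of each comparison, for genes above 1 FPKM in at least 3 libraries, with Benjamini-Hochberg adjustment over all genes tested and a limit of 0.05. Fold changes are on that scale and understate changes of low genes. Differences of effects were tested as interaction terms. The fits were tested on simulated data. Library sizes were set from low values, of which 72.5% to 79.83% per library were whole fragments at the annotated exon length (within 0.01 fragments). For each gene, a length was then searched for that gave whole fragments in all libraries (within 0.05 fragments). Such a length was found for 28846 of 28892 detected genes (99.8%), a share that rests on the search. It equalled the annotated exon length in 12176 genes. Those fragments went into limma-voom. Precision is limited by 3 replicates per group, and p-values measure the spread between them. Genes were named from GRCm38.p6 annotation (53706 of 53801 IDs matched).

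Alternatives were pseudocounts of 1 and 0.1, no filter, a mean above 5 FPKM, median-ratio scaling, no intensity trend, a replicate block, limma-voom, all 24 libraries in 1 fit, and leaving out each library. The comparison of co-cultured PSC over time was added after the data were seen. Members passing in a co-culture comparison are given with every library, as are the enzymes and control genes nearest to the limit, which were chosen after their values were seen. Other pathway genes passing there are named. The members and all lists were chosen with earlier results of these data known.

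In the standard model, samples of equal replicate number deviated together from their group means (correlations across genes of 0.38 to 0.82, each highest with its own number), so the numbers pair the samples. A fit with the replicate block changed none of the calls of members there. In the inverse model the correlations were -0.17 to 0.21. Promoter sequences came from RefSeq (GRCm38.p6).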

Additional observations from a re-analysis of the deposited data

Results flagged for a closer look

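In the inverse model, every library of 72 h was above every library of 24 h for Scarb1 in the controls (log2 fold change 1.13, from 29.5 ± 2.80 to 65.8 ± 14.4 FPKM, SD, n = 3) and below every one in the co-cultures (-0.23, from 26.1 ± 1.99 to 22.1 ± 1.21 FPKM), where the change did not pass the test in limma (adjusted p = 0.392). The difference between the changes was -1.36 (SE 0.21) and missed the limit in limma (adjusted p = 0.0643).

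Acat2, the thiolase at the start of the route, was higher in every inverse co-culture than in every control at 24 h (log2 fold change 0.32, adjusted p = 0.342 in limma, 15.1 ± 1.52 against 12.02 ± 1.58 FPKM) and lower in every one at 72 h (-0.68, adjusted p = 0.0687 in limma, 12.6 ± 3.27 against 19.96 ± 2.47 FPKM). The difference between the effects was -0.999 (SE 0.26) and did not pass in limma (adjusted p = 0.217).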

How the results depend on the processing

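The counts of 0 members in both standard co-cultures and in the standard controls over time held under all 9 alternatives and all 6 fits that left out a library. At 24 h of inverse co-culture, the 2 calls became 1 with a mean above 5 FPKM, with median-ratio scaling and with no intensity trend, and 0 with no filter and with all 24 libraries in the fit. Leaving out a library gave 0 to 2. At 72 h of inverse co-culture, the 6 calls became 11 in limma-voom (10 lower and 1 higher), which tested the same genes from counts. They became 4 with no filter, where Hsd17b7 and Pmvk were lost, and 3 to 9 when a library was left out. Pmvk was lost with no intensity trend. All 24 libraries in the fit lost Abca1 and Abcg1 and added Ebp, and a mean above 5 FPKM added Ebp and Insig1. The 18 calls in the inverse controls over time became 2 with all 24 libraries in the fit, 20 in limma-voom, and 12 to 19 when a library was left out. With no filter, Fdps, Idi1, Lss, Nsdhl and Tm7sf2 were lost, and with no intensity trend Idi1, Nsdhl and Scap. For the difference of inverse effects, 0 became 1 in limma-voom and 0 to 2 when a library was left out. The cause of these changes was not tested. The share of all genes called is not given for the alternatives or for the fits that left out a library. These counts therefore do not tell a change in the members from a change over all genes. No gene that passed the test reversed its direction under an alternative. Among members that did not pass at 72 h of inverse co-culture, Sc5d and Insig2 stood above 0 with median-ratio scaling, as did Lss and Stard4 (0.0013 and 0.0445) without co-culture replicate 3 and Sc5d (0.07) without control replicate 3.

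The inverse replicate numbers showed no clear pairing of the samples, and the labels do not say what a number marks. A fit of the inverse model with the replicate block gave 0 calls in place of 2 at 24 h (adjusted p = 0.0775 for Npc2 and 0.124 for Abcg1), 5 in place of 6 at 72 h (Pmvk lost, adjusted p = 0.0566) and 19 in place of 18 in the controls over time (Dhcr7 added). The block changed no other call of a member.

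With 3 libraries per group, a member with a standard error near the median of the standard controls over time (0.32, or 0.14 with the replicate block) could differ between groups by more than that amount without passing the test. Fdps was the lowest enzyme by mean FPKM in all 8 groups, which limits the precision of its values.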
